A study of Mus musculus with 8 samples.

Results

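The genes described are the voltage-gated sodium channel subunits and the hyperpolarization-activated (HCN) channels that a list of 9 names covers: Scn1a, Scn2a, Scn2a1, Scn3a, Scn8a, Scn2b, Hcn2, Hcn3 and Hcn4. They were chosen by name. Every read cluster was taken whose 3' UTR, coding (CDS), 5' UTR or intron annotation in the deposited table gave any of these names exactly. Such a cluster is called a sense cluster below. This gave 103 of the 70142 clusters, and 6 of the 9 names had at least 1 cluster. Scn2a1 is listed by RefSeq as an older name of Scn2a and did not occur in the table, so the list covers 8 loci.

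The assay was FLAG-Ago HITS-CLIP: ultraviolet light crosslinks RNA to an epitope-tagged Argonaute protein, which is precipitated through its tag so that the bound RNA can be sequenced. The study used it to look for miRNA seed targeting in Camk2a neurons of the mouse forebrain. The 5 Flag-Ago2 libraries came from mice with Camk2a-cre and Rosa-Stopfl/fl-Flag-Ago2. The 3 control libraries came from mice with Rosa-Stopfl/fl-Flag-Ago2 and no Cre, so both groups carried the Cre-inducible Flag-Ago2 allele at the ROSA26 locus. By their titles the Flag-Ago2 libraries are replicates 1, 2a, 2b, 3a and 3b. The titles do not say whether libraries with the same number share a mouse. All mice were 8 to 14 weeks old, the tagged protein depended on Cre driven by the Camk2a promoter, and precipitation was made from part of a single forebrain. The deposited table holds 1 read count per cluster for the whole study, so no value below has a replicate spread or a control value, and no difference between Flag-Ago2 and control mice can be given.

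Sodium channels open on depolarization and carry the rising phase of the action potential. A large alpha subunit forms the pore, and small beta subunits tune its gating and its place in the membrane. HCN channels open on hyperpolarization, are bound by cyclic AMP and carry a mixed cation current that steadies the resting potential and supports rhythmic firing. miRNAs guide Argonaute to RNA mainly by pairing of their seed, the bases just behind the 5' end, with sites that are best known in 3' UTRs.

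The 103 clusters of the channel genes held 2553 reads. Single clusters ranged from 10 to 132 reads (median 21), against a median of 19 over all 55842 sense clusters of the table. Their widths ran from 55 to 325 bases with a median of 130, against 127. The table's reads sum to 1834586, and its lowest count is 10. Among marker genes, 4 of 4 of excitatory neurons had a cluster (1877 reads in all, 1381 of them in Camk2a), as had 3 of 4 of interneurons (399 reads), 4 of 4 of astrocytes (2263 reads, 1860 of them in Slc1a2), 4 of 4 of oligodendrocytes (877 reads) and 2 of 4 of microglia (56 reads). Sst, Aif1 and P2ry12 had none, and over all protein-coding genes 43.4% had a sense cluster. The table cannot be split by cell, so the cell that a channel cluster came from was not tested. Fewer cells of a type and less RNA per cell cannot be told apart. The tagged protein depended on Camk2a-driven Cre, yet markers of astrocytes and oligodendrocytes also had clusters. Whether such reads were background RNA or came from control libraries was not tested, as the table has no control value. The same limit holds for the channel clusters.

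Sense clusters were found in 6 of the 8 loci, against 43.4% of 21837 protein-coding genes. Of the 8 loci, 6 had a CDS cluster, against 27% of all protein-coding genes. An intron cluster was found in 5 loci and a 3' UTR cluster in 5, against 28.1% and 21.5%. Genes with any sense cluster have higher shares. Among 9468 such protein-coding genes, 5898 had a CDS cluster, 6132 an intron cluster and 4704 a 3' UTR cluster. By reads the order was Scn8a with 760, Scn2a with 566, Scn1a with 557, Scn2b with 275, Hcn2 with 243 and Scn3a with 152. The order by exonic reads, which leave out intron clusters, was different: Scn2a with 397, Scn1a with 363, Scn2b with 275, Scn8a with 273, Hcn2 with 225 and Scn3a with 130, against a median of 37 over the 9468 protein-coding genes with a sense cluster. With 1 pooled value per gene, it cannot be said which neighbours in either order differ.

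**Figure D1:**
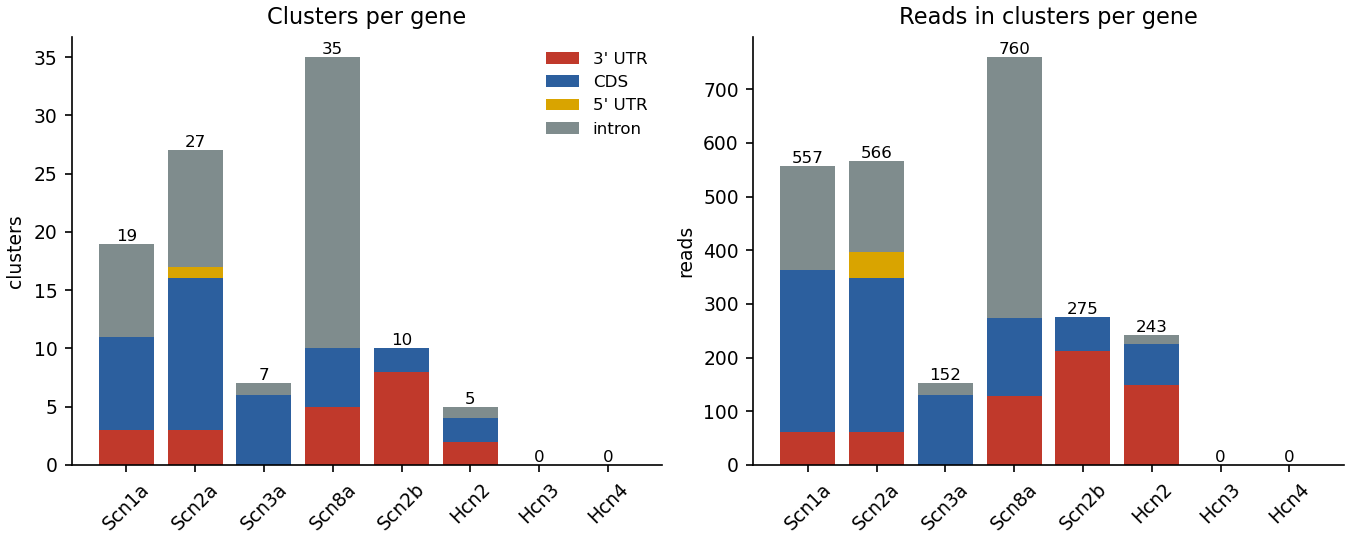
Clusters (left) and reads in clusters (right) for each of the 8 loci, stacked by the region of the cluster, from the pooled table with no error bars. Scn8a is the tallest bar in both panels, with 35 clusters and 760 reads, and most of it is intronic, while Hcn3 and Hcn4 are at 0.

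Of the 103 clusters, 36 lay in coding sequence, or 35.0% (95% Wilson interval 26.4 to 44.6), against 23.2% of all sense clusters. Another 45, or 43.7% (34.5 to 53.3), were intronic, against 58.6%. The 3' UTRs held 21, or 20.4% (13.7 to 29.2), against 16.6%, and a single cluster was annotated to a 5' UTR. The intervals cover counting error only, and clusters of 1 gene share their RNA. These shares also lean on Scn8a: without it 45.6% of the clusters were coding and 29.4% intronic. The shares are not scaled by length, and the coding sequences of the alpha subunits are 5841 to 6027 bases long. Coding clusters were also annotated to an intron in 20 of 36 cases, or 55.6% (39.6 to 70.5), against 69.6% of all CDS clusters. Read depth differed little by region: the medians of the channel genes' clusters were 23 reads in 3' UTRs, 21 in CDS and 17 in introns, against 21, 21 and 18 over all clusters of these regions.

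**Figure D2:**
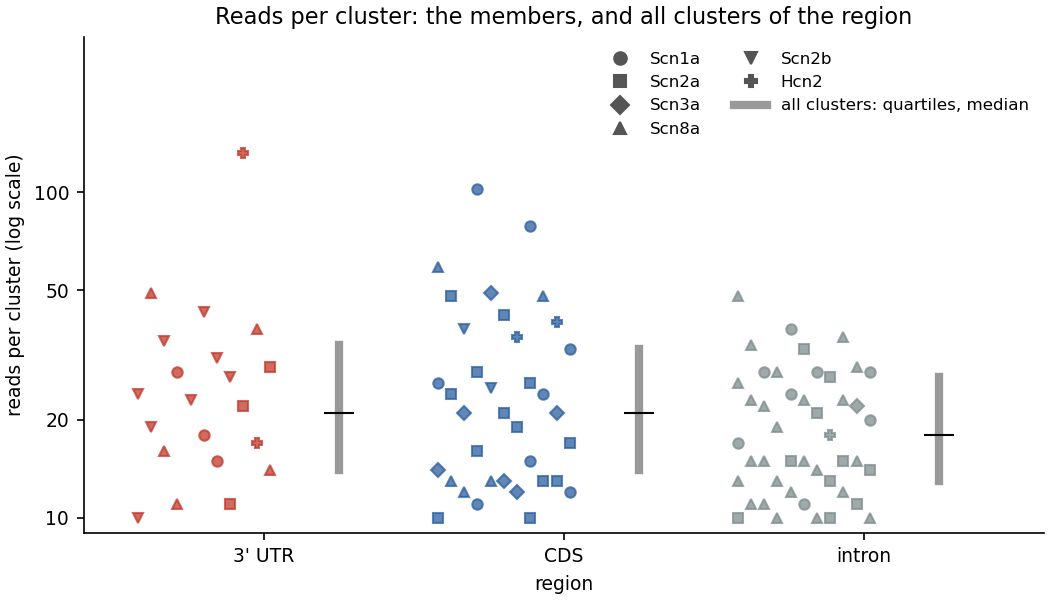
Reads per cluster on a log scale by region, with 1 symbol per cluster and a different symbol for each gene, beside grey bars for the quartiles and black lines for the medians of all clusters of that region. The single 5' UTR cluster is not drawn. One 3' UTR cluster of Hcn2 (132 reads) and a pair of CDS clusters of Scn1a (102 and 79 reads) stand above the rest, and no intron cluster passes 48 reads.

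Scn1a encodes a pore-forming alpha subunit that is known best from inhibitory interneurons, where its loss causes epilepsy. It lies on the minus strand of chromosome 2 and had 19 clusters with 557 reads: 3 in the 3' UTR (61 reads), 8 in CDS (302 reads) and 8 in introns (194 reads). Its coding sequence carried 50.1 reads per kb, against a median of 21.8 over the 5898 genes with a CDS cluster, while its 3' UTR carried 29.0 reads per kb, against 25.4 over the 4702 genes with a 3' UTR cluster. Its deepest cluster, at chr2:66319354-66319592 (mm10) over exon 16 of 27 and its junction, held 102 reads and ranked 276 of 12960 CDS clusters. A second deep cluster of 79 reads covered exon 13 at chr2:66323304-66323478 and ranked 509. Together they made up the larger part of the gene's 302 coding reads. The third by depth was intronic, with 38 reads at chr2:66347333-66347531. An 11-read cluster annotated as intronic overlaps the first 51 bases of exon 1 of the transcript used.

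Scn1a was also the gene whose total moved most when clusters with a circRNA identifier were left out: 296 of its 557 reads remained. Both deep coding clusters and the 33-read cluster of exon 17 carry such an identifier. Over all 8 loci, 13 of the 103 clusters carried one, or 12.6%, against 15.9% of all sense clusters. A circular and a linear RNA share these exons, and the table does not say which of them the reads came from.

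Scn2a encodes the alpha subunit known for the axons of excitatory neurons, with an early role in development. It lies on the plus strand of chromosome 2 and had 27 clusters with 566 reads, of which 13 clusters and 287 reads were coding. Per length it had 2.16 CDS clusters per kb, against a median of 0.932 over genes with a CDS cluster. By the same measure Scn2b had 3.10, Scn1a 1.33, Scn3a 1.03, Scn8a 0.838 and Hcn2 0.772. Coding reads per kb were 22.3 in Scn3a, 24.3 in Scn8a and 29.4 in Hcn2, near the median of 21.8. A dense coding sequence was therefore not shared by all of the channel genes. No Scn2a cluster passed 48 reads. That depth was reached by a coding cluster at exon 24 (chr2:65748263-65748508) and by a cluster over the first exon at chr2:65620759-65620989. The latter was the only cluster of the channel genes annotated to a 5' UTR and ranked 78 of 894 5' UTR clusters. The third, with 42 reads, lay in exon 26. The 3' UTR held 3 clusters with 22, 11 and 29 reads, or 23.7 reads per kb, and the introns held 10 clusters with 169 reads. A further coding cluster of 21 reads, at chr2:65682662-65682767, lies in an exon that the transcript used for mapping lacks and that the annotated transcripts Scn2a-203, Scn2a-204 and Scn2a-205 have.

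Scn3a encodes the alpha subunit known mainly from the fetal brain. It had 7 clusters with 152 reads, the lowest of the 4 alpha subunits, and 6 of them were coding. Its 3' UTR of 3442 bases held no cluster, whereas each of the other 5 genes with clusters had at least 2 there. Its deepest cluster held 49 reads in exon 17 at chr2:65495104-65495195, and a pair of 21-read clusters lay over exons 5 and 20. The only intron cluster, with 22 reads, lay 24 bases from the nearest exon.

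Scn8a encodes the alpha subunit that dominates the initial segment and the nodes of mature axons. It lies on the plus strand of chromosome 15 and had 35 clusters with 760 reads, of which 25 clusters and 487 reads were intronic. Only 35.9% of its reads were exonic, against a median of 67.9% over protein-coding genes with a sense cluster. Its introns had 15.3 clusters per 100 kb, against a median of 5.43 over the 6124 genes with an intron cluster and a measurable intron. Intron 1, which is 65.2 kb long, held 12 of them with 256 reads, and intron 12 held 5 with 110 reads. The median distance of the 25 intron clusters to the nearest exon of the transcript used was 2300 bases, with the nearest at 230 bases, and 1 of them overlaps an exon of another annotated transcript, Scn8a-210. Its deepest cluster was coding, with 59 reads over exon 17 (chr15:101015631-101015943). The next were a 3' UTR cluster of 49 reads at chr15:101045493-101045682, near the end of a 3' UTR of 5253 bases, and clusters of 48 reads in intron 1 and in the last exon's coding part.

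**Figure D3:**
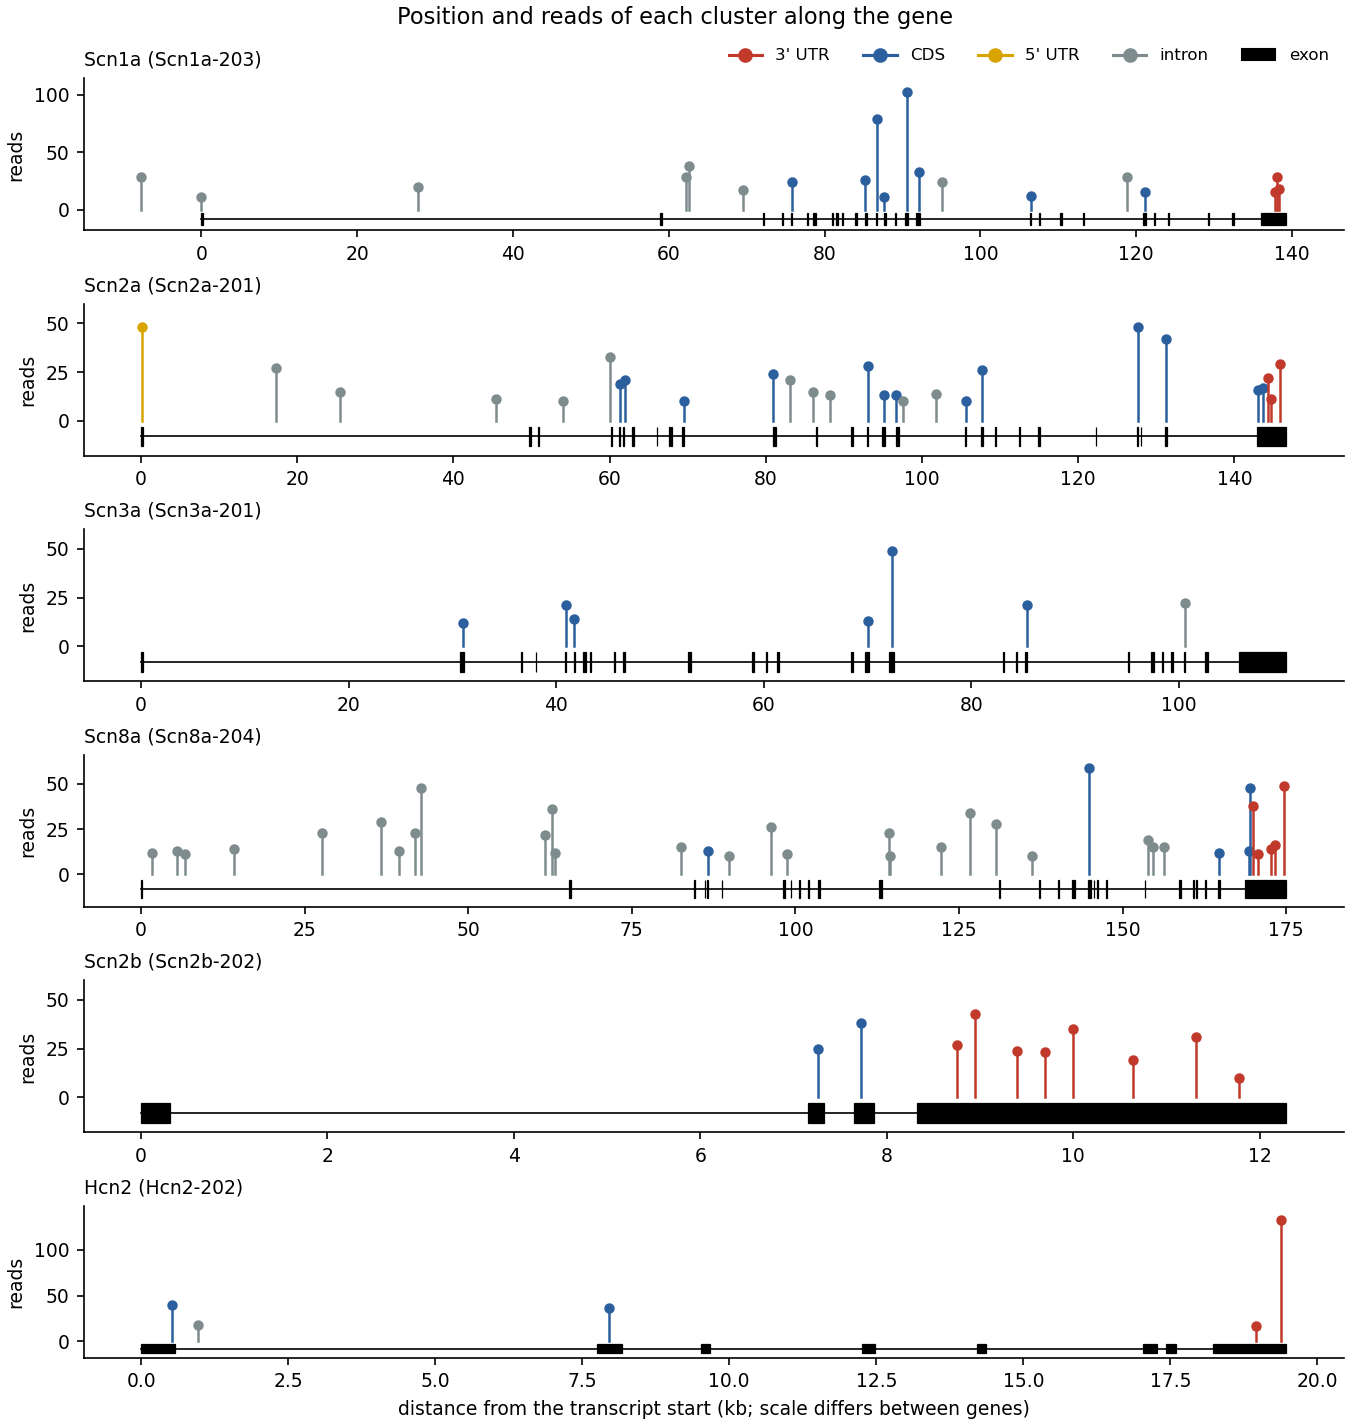
Reads of each cluster (vertical axis) against its distance from the transcript start in kb for the 6 genes with clusters, with stems coloured by region and exons drawn as black boxes under the stems, the horizontal scale differing between genes. Intron stems fill the first intron of Scn8a, the stems of Scn2b all stand in exons at the right, and the 132-read stem of Hcn2 stands at the very end of the gene. One Scn1a cluster lies to the left of the start of the transcript drawn.

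The 4 alpha subunits are paralogs: their coding sequences, aligned with each other, share between 72.5% and 83.1% of bases by pair. Of 31 coding clusters that could be placed on this alignment, 21 overlapped a cluster of another alpha subunit by at least 1 codon, and 19 by more than 1. The share that clusters placed elsewhere would give was not computed. Exon 5 carried a cluster in all 4, with 24 reads in Scn1a, 19 in Scn2a, 21 in Scn3a and 13 in Scn8a. Exon 17 also had a cluster in all 4, with 33, 13, 49 and 59 reads in the same order of genes, but the Scn2a cluster covered a different stretch of it from those of Scn1a and Scn3a. Exon 16 had one in 3 of them, with 102 reads in Scn1a, 13 in Scn2a and 13 in Scn3a. Depth thus ran from 13 to 24 reads between paralogs at exon 5 and from 13 to 102 at exon 16, with no spread to set against either. Where the exon 16 clusters overlap, the genes share 91.4% to 95.2% of bases, so reads of these stretches could have been placed on the wrong paralog, and how the alignment treated such reads is not given in the sources used here.

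**Figure D4:**
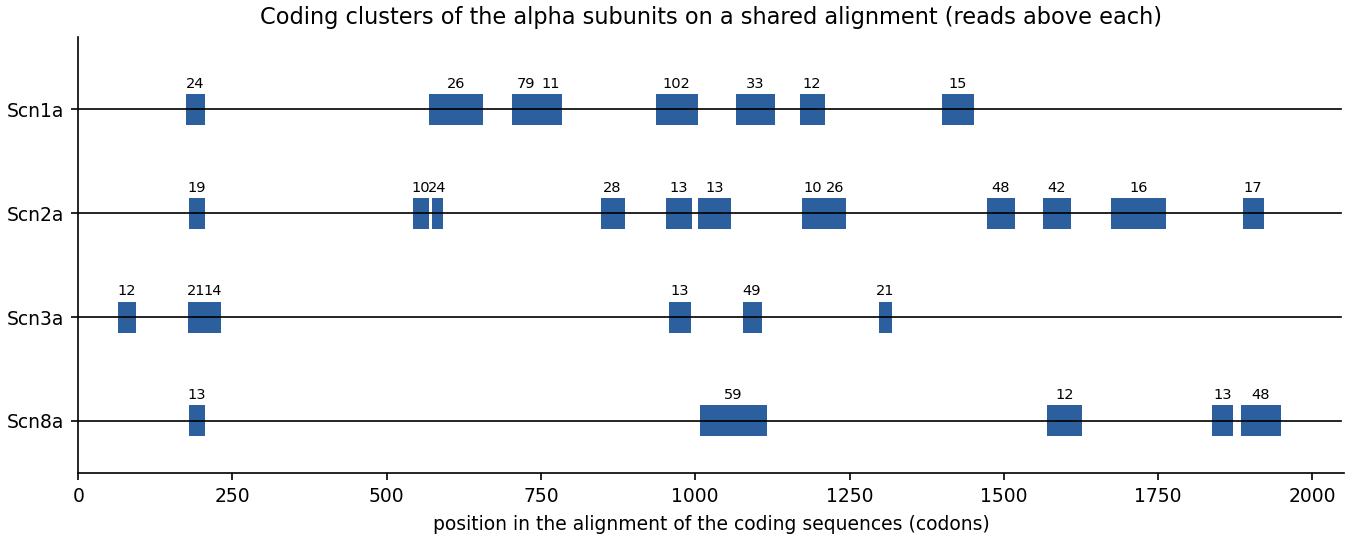
Coding clusters of Scn1a, Scn2a, Scn3a and Scn8a as boxes on a shared alignment of their coding sequences, 2046 codons long, with the reads of each cluster above it. Boxes line up near codon 200 in all 4 rows, and around codons 958 to 992 in the rows of Scn1a, Scn2a and Scn3a.

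The seed counts used throughout are the table's own. Counting 6-base matches to miRNA bases 2 to 7 that overlap a cluster by at least 1 base gave the table's number in all of 35 clusters inside single exons for 1024 of the 1029 miRNA columns that had a sequence, and the other 5 differed in at least 1 cluster. The columns used for 30 of the 31 families below were among those that agreed, and the 6-mer of miR-124 was read from the counts themselves. For 31 miRNA families abundant in brain, any match was found in 25 of 36 coding clusters, or 69.4% (53.1 to 82.0), against 76.8% of all CDS clusters. The families seen most often there were miR-124 in 6 clusters (16.7%, 7.87 to 31.9, against 6.65%), miR-7 in 5 (13.9%, 6.08 to 28.7, against 6.36%) and miR-23 in 5 (13.9%, against 5.39%). Of these clusters, 3 of the 5 with miR-7 and 2 of the 6 with miR-124 are the overlapping exon 16 clusters of paralogs, so they are not separate observations and the intervals are too narrow. All these matches were counted over whole clusters, parts beyond the exon included. Counted so, Scn1a had a family match in all 8 of its coding clusters, Scn2a in 8 of 13 and Scn3a in 3 of 6. Scn8a had one in 4 of 5, Scn2b in 1 of 2 and Hcn2 in 1 of 2. The miR-124 matches of the Scn1a clusters at exons 13 and 5 did not lie wholly within the exon. Nor did the miR-7 and miR-17/20/93 matches of the 13-read Scn2a cluster at exon 17. The same held for the miR-23 match of the 21-read Scn3a cluster at exon 20. The miR-23 match of the 21-read Scn2a coding cluster was not placed, as that cluster lies outside the transcript used. Of the deepest clusters, that of Scn1a exon 16 held matches to miR-7, miR-101, miR-124 and miR-153, the last not wholly within the exon. That of Scn1a exon 13 held a match to miR-124, which also was not wholly within the exon. The cluster of Scn8a exon 17 held matches to miR-9, miR-124 and miR-127. The 49-read cluster of Scn3a and the 48- and 42-read coding clusters of Scn2a held none.

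Scn2b encodes a beta subunit with an immunoglobulin-like outer domain, which is linked to the alpha subunit by a disulfide bond. On the plus strand of chromosome 9, it had 10 clusters with 275 reads, all of them exonic. Its 3' UTR of 3769 bases held 8 clusters with 27, 43, 24, 23, 35, 19, 31 and 10 reads from the stop codon outwards. This is 2.12 clusters and 56.2 reads per kb, against medians of 1.04 and 25.4 over genes with a 3' UTR cluster. The deepest, with 43 reads, lay at chr9:45126636-45126812, between 335 and 511 bases after the stop codon. Its short coding sequence of 645 bases had clusters of 25 and 38 reads, or 97.7 reads per kb. All 10 clusters lay in exons 2 to 4, and the deepest held 43 of the 275 reads.

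Hcn2 encodes an HCN channel found widely in the brain and prominent in thalamic neurons. On the plus strand of chromosome 10, it had 5 clusters with 40, 18, 36, 17 and 132 reads in the order of the gene. The last, at chr10:79735933-79736100 and 396 to 563 bases after the stop codon, held 132 of the gene's 243 reads and ranked 134 of 9284 3' UTR clusters. With it, the 571-base 3' UTR carried 261 reads per kb, against a median of 25.4, and ranked 275 of the 4702 genes with a 3' UTR cluster. The 17-read cluster spans the stop codon and is counted with the 3' UTR. Hcn3, which is known for low levels in brain, and Hcn4, the main HCN channel of the cardiac pacemaker, had no cluster, and no cluster lay in the span of either gene on either strand. As the table lists no cluster under 10 reads, this does not show that neither RNA was bound.

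In 3' UTRs, 19 of the 21 clusters held a match to at least 1 of the 31 families, or 90.5% (71.1 to 97.3), against 82.7% of all 3' UTR clusters. These clusters held 57 matches from 27 families, of which 36 lay within 50 bases of the cluster's centre and 16 within 25. The only miR-7 match among them lies before the stop codon, in the coding part of the 17-read Hcn2 cluster. Read on the transcript sequence, 6 were 8-mers, 10 were 7-mers to bases 2 to 8, 9 were 7-mers to bases 2 to 7 with an A, and 30 were 6-mers. The other 2 belong to miR-124, whose mature sequence was not read and whose matches are therefore given as 6-mers alone. The 8-mers, which pair with bases 2 to 8 and end in an A, are printed because they are the longest matches found, with the 6 bases that pair with miRNA bases 2 to 7 in capitals. They come from the annotated transcripts and are read 5' to 3' on the plus strand of mm10, which is the strand of these genes.
Hcn2, miR-181, chr10:79736011-79736040: cgccgtcgccatGAATGTactgacgagccg
Hcn2, miR-135, chr10:79735614-79735643: tgcccgtgcagaAGCCATagagggacgtag
Scn2b, miR-125, chr9:45127731-45127760: acccccacaagcTCAGGGagttagctgttc
Scn2b, miR-125, chr9:45127792-45127821: actaagacagtcTCAGGGaccaatacttgc
Scn8a, miR-30, chr15:101040729-101040758: aagtgaaagcttGTTTACaaacttccgaat
Scn8a, miR-138, chr15:101043505-101043534: aaccacaccatcACCAGCagttcacacccg
The matching mature miRNAs, from RefSeq (GRCm38.p6) with the seed, bases 2 to 8, in capitals, are the following.
miR-181a-5p: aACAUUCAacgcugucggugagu
miR-135a-5p: uAUGGCUUuuuauuccuauguga
miR-125b-5p: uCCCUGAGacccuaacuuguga
miR-30a-5p: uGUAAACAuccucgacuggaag
miR-138-5p: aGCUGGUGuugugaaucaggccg

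The miR-181 8-mer lay 9 bases from the centre of the 132-read Hcn2 cluster, 486 bases after the stop codon. The same cluster held a miR-137 7-mer near its far edge, 74 bases from the centre. The miR-135 8-mer of Hcn2 lay in the shallow cluster over the stop codon, 34.5 bases from its centre, beside a miR-135 7-mer and a miR-9 7-mer that overlap each other. In Scn2b a single cluster of 35 reads held 3 matches to miR-125, of which 2 were 8-mers, at 32.5 and 28.5 bases on either side of its centre. In Scn8a the miR-30 8-mer lay 56 bases after the stop codon in a 38-read cluster, and the miR-138 8-mer lay 7.5 bases from the centre of a 14-read cluster. A match is a description of letters under a cluster and does not show which miRNA was bound.

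**Figure D5:**
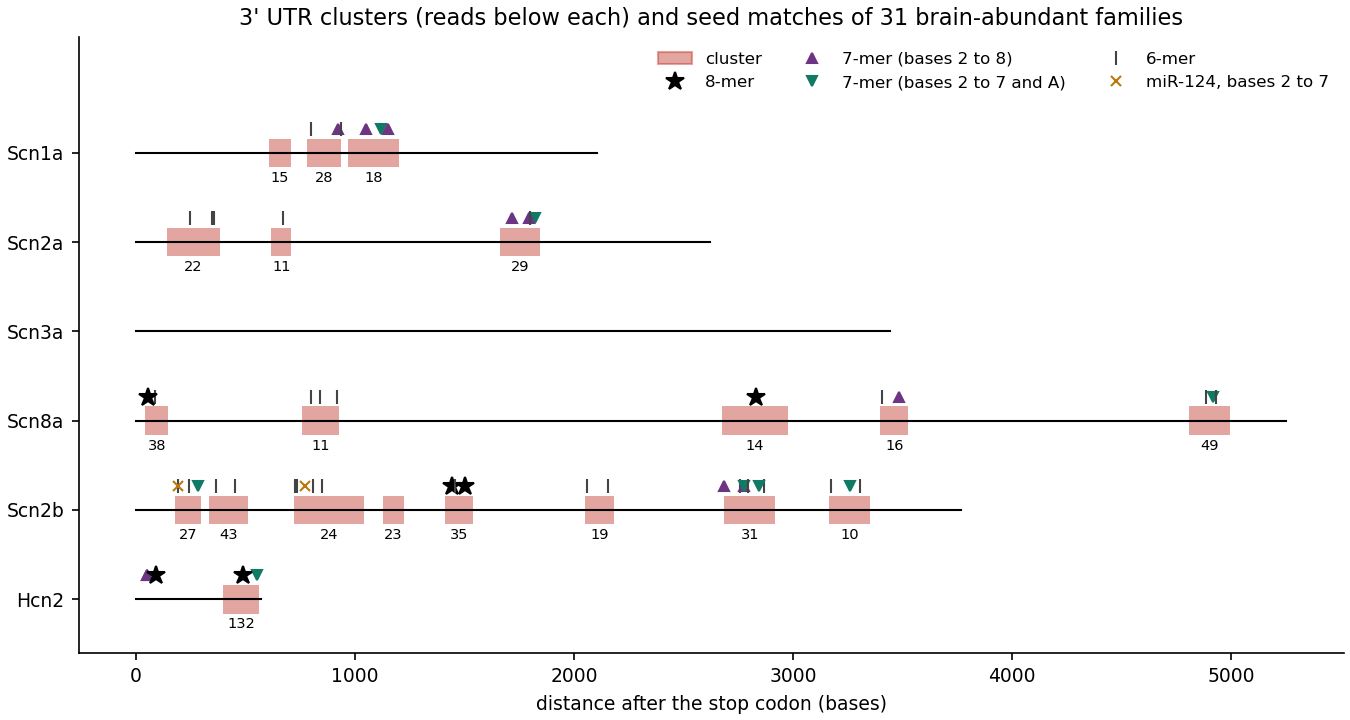
3' UTR clusters (red boxes, with reads below) and the matches to 31 miRNA families (symbols above, by match length) against the distance after the stop codon in bases, for the 6 genes with clusters. The black line is the length of the 3' UTR. The 17-read cluster of Hcn2, which begins before the stop codon, has no box, but its sites after the stop codon are drawn. The 8 clusters of Scn2b are spread over its whole 3' UTR, Scn3a has none, and the 132-read cluster of Hcn2 lies at the end of the shortest 3' UTR.

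Across genes the most frequent family in 3' UTR clusters was miR-135. It matched 6 of 21 clusters, or 28.6% (13.8 to 50.0), against 5.70% of all 3' UTR clusters, and the 6 were spread over 4 genes: 3 in Scn2b and 1 each in Hcn2, Scn1a and Scn8a. Most of these were 6-mers, and the 7-mer to bases 2 to 8 was found in 1 cluster, that of Hcn2. miR-9 matched 4 clusters, or 19.0%, against 6.54%, in Hcn2, Scn2b and Scn8a. miR-128 also matched 4, against 13.6%, with 3 of them in Scn2b and 1 in Scn2a. The 3 clusters with miR-27 and the 3 with miR-34 were all of Scn2b. No 3' UTR cluster of the channel genes matched let-7, miR-24, miR-127 or miR-153, which occur in 4.17%, 6.82%, 0.829% and 3.83% of all 3' UTR clusters. With 21 clusters, 0 matches allow a share of up to 15.5% (upper Wilson bound), so shares below that bound are not excluded. No family was tested, since 31 were looked at in few clusters of 5 genes.

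Other genes of the same channel families also had sense clusters. Scn4b, another beta subunit, had 9 clusters with 397 reads, and 7 of them with 350 reads lay in its 3' UTR. The beta subunit Scn3b had 2 clusters with 72 reads, both in its 3' UTR. Nalcn, the sodium leak channel, had 11 clusters with 274 reads, and 6 of these clusters were coding. Scn9a had 39 reads and Scn7a 17, whereas Scn4a, a channel of skeletal muscle, and Scn10a and Scn11a, channels of sensory neurons, had no cluster. Counts by gene are not scaled by expression, which the table does not hold.

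Of 25 partners and regulators of these channels, 22 had a sense cluster, against 43.4% of all protein-coding genes, with a median of 314 reads over the list, against 259 over the 8 channel loci. The 3 with the most exonic reads were Ank2, an ankyrin adaptor of the membrane skeleton, with 1322, Ptbp2, a neuronal splicing repressor, with 891, and Sptbn4, the spectrin of the axon initial segment, with 355. Of 26 calcium channel genes 21 had a cluster, with a median of 153.5 reads, and of 94 potassium channel genes 63 had one, with a median of 37 reads, also against 43.4%. These medians count genes at 0, and the lists differ in how long and how highly expressed their genes are, so they are given as levels alone.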

How the data were processed

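The aligner was BWA and the build mm10, per the submitters' processing notes. Not given in the sources used here are the BWA version, how clusters were called and from which libraries, how controls were used, and whether PCR duplicates were removed. The deposited table gives, per the file headers, 1 count of reads per cluster for the whole study, without normalization, and counts of seed matches for 1281 miRNAs. It has 0 columns for single libraries or groups, so depth per library is unknown, the planned edgeR test of Flag-Ago2 against control could not be run, and only descriptions are given.

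A cluster that named several regions was counted once, 3' UTR before CDS, then 5' UTR, then intron. Coordinates are 1-based. Exons, lengths and sequences came from 1 GENCODE M21 transcript per gene (GRCm38), matched to clusters by script. Of the 31 miRNA families, 30 had a mature sequence in RefSeq, and the 6-mer of miR-124 was read from the table. Alpha-subunit coding sequences were aligned with MAFFT 7.526. Work was done in Python 3.11.15 with pandas 2.3.3, SciPy 1.17.1 and Biopython 1.88. Wilson intervals at 95% are on shares of clusters and cover counting error only. The PCR-amplified reads carry no molecular identifiers. The counting was tested on simulated data.

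The channel genes and the lists of other genes, markers and families were chosen with earlier results of these data known. The rule for names took every channel gene, its 3 deepest clusters, the other family genes, the 3 partners with the most exonic reads and families with a match in a channel cluster. The cluster of Scn2a outside the mapped transcript and the families without a match were named after their values were seen. Some genes and sites that this rule covers are not reported here. Alternatives are given in the closing section.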

Additional observations from a re-analysis of the deposited data

Results flagged for a closer look

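A pair of clusters lay within the channel genes on the strand opposite to them and so belongs to none of the comparisons above. One of 15 reads lay opposite Scn2a at chr2:65641974-65642092, and one of 32 reads opposite Scn3a at chr2:65566184-65566340, 1.23 kb from that gene's start. The table names no gene on the sense strand of either. Both exceed the lowest count of 10 in the table, and no control value exists for them.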

How the results depend on the processing

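With clusters of at least 20 reads, 53 of the 103 clusters remained. Counting every region that a cluster names gave an intron share of 63.1%, against 43.7%. Leaving out Scn8a gave 45.6% coding and 29.4% intronic clusters, against 35.0% and 43.7%. With 7-mers to bases 2 to 8 in place of 6-mers, 10 of 21 3' UTR clusters held a match, from 11 families with 16 matches, against 19, 27 and 57. Within 50 bases of the centre there were 36 matches, and without Scn2b there were 31 in 12 clusters. Without clusters that name a gene on the opposite strand, Scn2b and Hcn2 were left with 0, as the table names Gm10684 opposite every Scn2b cluster and Bc1 opposite every Hcn2 cluster. Taking genes by span and strand, or only clusters that name 1 gene, changed no count of clusters or reads. Leaving out Scn8a or Scn2b and the opposite-strand setting were chosen after the data were seen, as was the 20-read setting for region shares.

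No paired analysis was possible because the table has no columns for single libraries, and for the same reason the planned fits with DESeq2, without a filter on low counts and without single replicates were not run. Depth limits the low end, where no cluster under 10 reads is listed.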
